A study of Arabidopsis thaliana with 12 samples.

Results

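The 8 genes described here encode enzymes through which Arabidopsis thaliana carries carbon when oxygen is scarce. They were taken as the rows of the count table for the loci AT1G77120 (ADH1), AT4G33070 (PDC1), AT5G54960 (PDC2), AT5G20830 (SUS1), AT3G43190 (SUS4), AT1G17290 (AlaAT1), AT1G72330 (AlaAT2) and AT4G17260 (the lactate dehydrogenase gene, LDH), and all 8 were found among the 23739 genes of the table. Poly(A) RNA was sequenced from whole seedlings of the double mutant ate1-2 ate2-1 (a1a2) and of the wild-type accession Col-0. The 4 groups, with 3 libraries each, were a1a2 given flg22, a1a2 given water (mock), Col-0 given flg22 and Col-0 given water. The mutant carries lesions in both arginyl transferase genes, ATE1 and ATE2, in all its tissues. All 12 libraries came from seedlings grown on agar under continuous light, moved to liquid medium with 0.5% sucrose at day 9, kept shaking at 120 rpm for 24 h, and harvested at day 10 after 1 h with 1 µM flg22 or water. Each library pooled 50 seedlings from 2 wells, so that a value is a mean over plants and organs, and fewer cells of a type cannot be told apart from less RNA per cell.

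Plants that run short of oxygen lose much of their mitochondrial ATP and depend on glycolysis. Sucrose synthase splits sucrose into UDP-glucose and fructose and thereby spares ATP. Pyruvate decarboxylase turns pyruvate into acetaldehyde, which alcohol dehydrogenase reduces to ethanol, and this step returns the NAD+ that glycolysis needs. Lactate dehydrogenase reaches the same end through lactate. Alanine aminotransferase moves an amino group between glutamate and pyruvate and so stores carbon as alanine or releases it again. The transcription factors of ethylene response factor group VII switch on several of these genes in hypoxia. In air, plant cysteine oxidases oxidise the N-terminal cysteine of these factors, ATE enzymes add arginine to it, and the proteins are degraded by the Arg/N-degron pathway. The peptide flg22 is the part of bacterial flagellin that the receptor FLS2 recognises, and it starts pattern-triggered immunity. The comparisons asked how the loss of arginylation and the immune elicitor each bear on these transcripts.

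The upstream sequences of 4 genes are shown because these genes lie at the extremes of the response, with SUS4, PDC1 and ADH1 at a genotype difference and AlaAT1 at a response to flg22. Each line gives the 250 bases before the annotated gene start on the strand of the gene, from the RefSeq sequence of TAIR10.1, with ADH1 from chr1:28975005-28975254 (+ strand), PDC1 from chr4:15954804-15955053 (- strand), SUS4 from chr3:15184106-15184355 (- strand) and AlaAT1 from chr1:5922082-5922331 (+ strand). Capitals mark AAACCA, the opening bases of the hypoxia-responsive promoter element bound by group VII factors, and CACGTG, the G-box, on either strand, so that TGGTTT is AAACCA on the opposite strand.
ADH1: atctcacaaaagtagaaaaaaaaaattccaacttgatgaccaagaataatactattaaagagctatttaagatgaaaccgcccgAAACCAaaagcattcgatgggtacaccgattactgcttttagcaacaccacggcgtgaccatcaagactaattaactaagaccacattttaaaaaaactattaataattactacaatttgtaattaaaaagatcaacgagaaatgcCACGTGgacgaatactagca
PDC1: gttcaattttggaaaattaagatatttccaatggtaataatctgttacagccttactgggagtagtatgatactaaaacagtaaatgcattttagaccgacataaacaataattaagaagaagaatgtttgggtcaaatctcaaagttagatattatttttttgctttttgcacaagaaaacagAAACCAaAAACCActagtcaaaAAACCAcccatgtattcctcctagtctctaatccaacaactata
SUS4: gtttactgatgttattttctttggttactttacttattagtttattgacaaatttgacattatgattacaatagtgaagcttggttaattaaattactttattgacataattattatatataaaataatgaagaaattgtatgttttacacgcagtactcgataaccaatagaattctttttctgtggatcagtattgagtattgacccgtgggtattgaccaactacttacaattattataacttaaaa
AlaAT1: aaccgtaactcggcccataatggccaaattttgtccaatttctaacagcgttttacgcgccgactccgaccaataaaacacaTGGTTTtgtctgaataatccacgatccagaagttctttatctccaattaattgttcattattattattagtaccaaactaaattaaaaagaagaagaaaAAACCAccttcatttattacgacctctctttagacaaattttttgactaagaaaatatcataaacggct
The PDC1 window held 3 copies of AAACCA, the AlaAT1 window 2 and the ADH1 window 1, together with 1 CACGTG. The window of SUS4, which had the largest genotype difference of the 8 genes, held neither motif. Among the windows not printed, SUS1 and LDH held 1 AAACCA each, PDC2 held 2 CACGTG and AlaAT2 held neither. Of 27443 Arabidopsis windows of the same length, 27.3% held AAACCA and 6.49% held CACGTG on either strand. The core of the W-box, TTGAC, which WRKY factors bind, occurred in 44.9% of windows. It was found 5 times in the window of SUS4, 2 times each in those of PDC1, PDC2 and LDH, 1 time each in those of SUS1, AlaAT1 and AlaAT2, and 0 times in that of ADH1. A TTGAC overlapped a CACGTG by 1 base in the PDC2 window, and no other matches overlapped. These matches describe letters in a short window and were not tested for binding or against the fold changes. Sequence outside the windows was not scanned.

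The libraries were alike in depth, with 20285662 to 22433536 counts each. ATE1 had 2.19 to 4.22 CPM (the counts of a gene relative to the size of the library after scaling) in a1a2 libraries, against 20.7 to 28.4 CPM in Col-0 libraries, and ATE2 had 0.148 to 0.513 CPM in a1a2, against 4.68 to 6.73 CPM in Col-0, as the labels require. The 3 shoot markers RBCS1A, CA1 and LHCB1.1 were abundant in every library, and their sum ranged from 23300 to 32000 CPM in a1a2 with flg22, from 23800 to 31500 in a1a2 mock, from 15700 to 34500 in Col-0 with flg22 and from 21400 to 28800 in Col-0 mock. The root markers COBL9, EXPA7 and PYK10 summed to between 2980 and 4850 CPM over all libraries, with overlapping ranges between the genotypes. Nearly all of this sum was PYK10, at 2960 to 4830 CPM, while COBL9 had 4.54 to 14.5 CPM and EXPA7 5.62 to 13.7 CPM. The comparisons rest on edgeR's quasi-likelihood test fitted to all genes, and a gene was called when its Benjamini-Hochberg adjusted p was under 0.05 and its change exceeded 1.5-fold. Replicate numbers marked libraries that deviated together, and the main fit did not use them. A second fit therefore held the replicate number as a block, and its value is given where it changed the call. Calls, intervals and fits that left out a library are without this block unless stated.

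**Figure D1:**
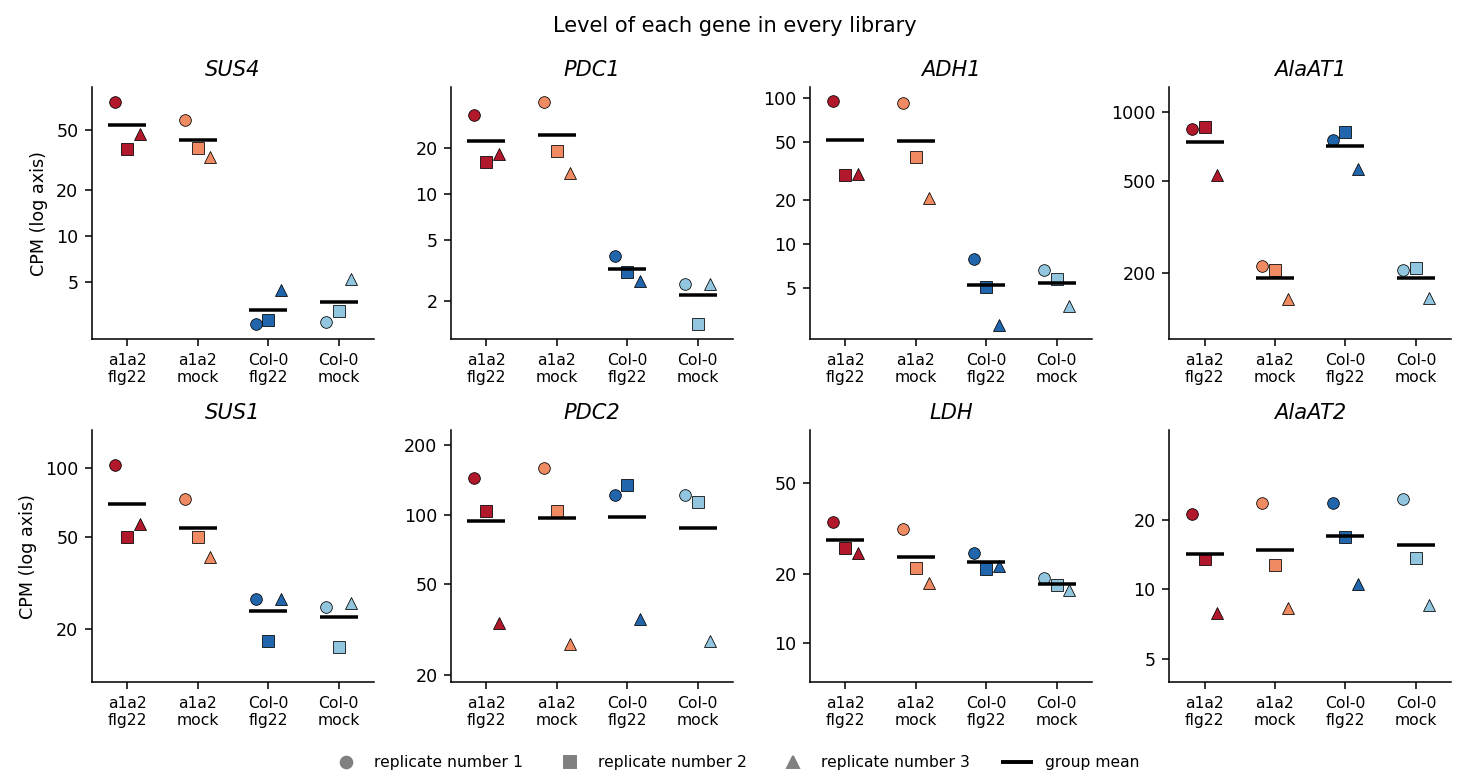
CPM of the 8 genes in each of the 12 libraries on log axes whose ranges differ between panels, with symbols for the replicate number and a bar at the mean of each group. SUS4, SUS1, PDC1 and ADH1 sit higher in all a1a2 libraries than in any Col-0 library of the same treatment, AlaAT1 sits higher in all flg22 libraries, and PDC2 is lowest in replicate 3 of every group.

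The mutant carried far more transcript of some of these genes in both treatments. Of the 8 genes, 2 were called in the comparison of a1a2 with Col-0 in mock (SUS4 and PDC1), against 0.166% of the 20439 tested genes, and the same 2 were called after flg22, against 0.137%. With the replicate block, ADH1 and SUS1 joined them, which made 4 of 8 in mock against 0.959% of all genes and 4 of 8 after flg22 against 0.827%. DESeq2 without a block also called these 4 in each treatment. It was fitted without the filter on low counts and called 103 of the 23739 genes in the table in mock and 81 after flg22. The CPM of a1a2 and Col-0 did not overlap for these 4 genes in either treatment, which held for 9.78% of all genes in mock and 8% after flg22. No member was called lower in the mutant. The 8 genes were chosen with earlier results of these data known, so these shares are a description. The median log2 fold change over the 8 genes was 0.84 in mock and 0.94 after flg22, beside -0.01 in mock and 0.00 after flg22 over all tested genes.

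Among the genes that admit sucrose, SUS4 differed most. This sucrose synthase gene (chr3:15179010-15184105, 13 exons) had 76.7, 37.5 and 47.5 CPM in a1a2 seedlings after flg22, against 2.62, 2.79 and 4.42 CPM in Col-0 seedlings (replicates 1, 2 and 3). In mock it had 58.3, 37.9 and 33.5 CPM in a1a2, against 2.71, 3.19 and 5.18 CPM in Col-0. The lowest mutant library thus stood several-fold above the highest wild-type library. The log2 fold change was 4.03 ± 0.37 (SE, n = 3 each) after flg22, with an edgeR adjusted p of 0.000785, and 3.55 ± 0.36 in mock, with an adjusted p of 0.00187. That is 16.4-fold after flg22 and 11.7-fold in mock. SUS4 kept its call when any library was left out, with adjusted p from 0.000621 to 0.0141 after flg22 and from 0.00111 to 0.0315 in mock.

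SUS1 (chr5:7050217-7055398, 13 exons), the closest relative of SUS4, had a smaller difference on a higher wild-type level. After flg22 it had 103, 50.2 and 57 CPM in a1a2, against 27, 17.7 and 26.9 CPM in Col-0. In mock it had 73.5, 50 and 40.8 CPM in a1a2, against 24.8, 16.6 and 25.9 CPM in Col-0. All mutant values lay above all wild-type values. The log2 fold change of 1.55 ± 0.31 after flg22 did not pass the threshold without the block (edgeR adjusted p = 0.164) and passed it with the block (1.51 ± 0.19, adjusted p = 0.0044). In mock the values were 1.29 ± 0.31 (adjusted p = 0.327) without the block and 1.28 ± 0.19 (adjusted p = 0.00915) with it.

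The reads of SUS4 and SUS1 can be separated, since their coding sequences of 2427 bases each were 84.3% identical, with a longest identical run of 38 bases, and no 50-base stretch of either transcript occurred in another gene. Inside each library SUS4 had 0.747, 0.747 and 0.833 counts per SUS1 count in a1a2 after flg22 and 0.794, 0.758 and 0.822 in a1a2 mock, against 0.097, 0.157 and 0.165 in Col-0 after flg22 and 0.109, 0.192 and 0.2 in Col-0 mock. The mutant ratios therefore fell within a narrow band that no wild-type library reached. Averaged over treatments, the log2 ratio was 2.39 higher in a1a2 (exact two-sided permutation test, p = 0.005, the smallest that 400 assignments can give; adjusted p = 0.01 over 6 ratio tests). Treatment moved the ratio by -0.14, with an exact permutation adjusted p of 0.54.

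**Figure D2:**
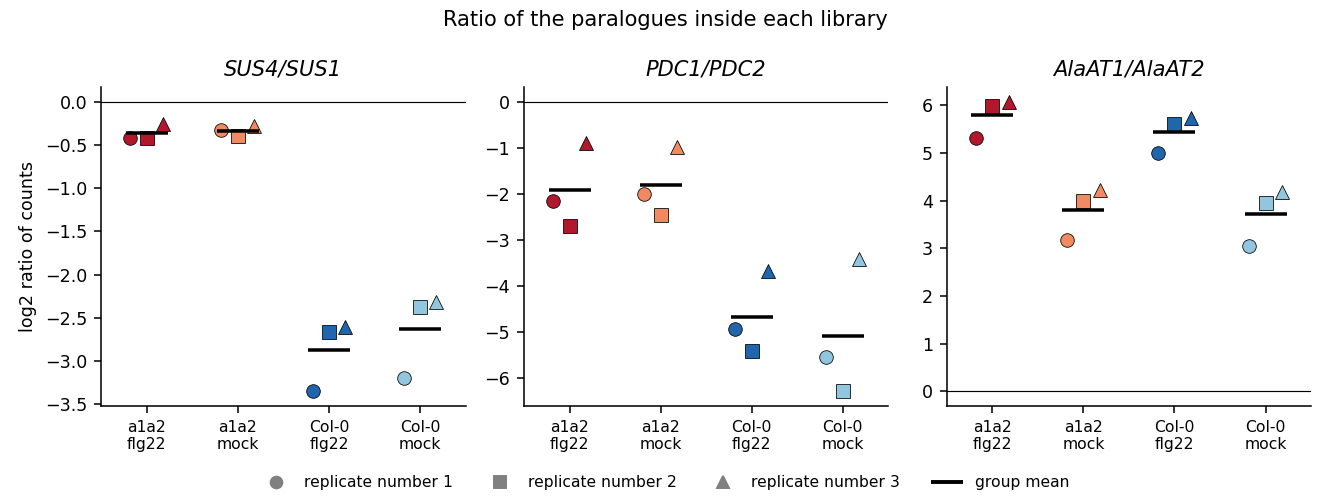
Log2 ratio of the counts of paralogues inside each library, by group, with a bar at the group mean and vertical ranges that differ between panels. The SUS4/SUS1 and PDC1/PDC2 ratios separate a1a2 from Col-0, by 2.39 and 3.02 on the log2 scale, and the AlaAT1/AlaAT2 ratio separates flg22 from mock, by 1.86.

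Further down the pathway, PDC1 was also higher in the mutant. PDC1 (chr4:15952257-15954803, 5 exons), a pyruvate decarboxylase gene, had 32.5, 16 and 18.1 CPM in a1a2 after flg22, against 3.96, 3.1 and 2.72 CPM in Col-0. In mock it had 39.5, 18.9 and 13.7 CPM in a1a2, against 2.59, 1.42 and 2.59 CPM in Col-0. The groups did not overlap, and replicate 1 was highest in both mutant groups. The log2 fold change was 2.77 ± 0.43 after flg22 (edgeR adjusted p = 0.0364) and 3.44 ± 0.44 in mock (adjusted p = 0.00832). Counts in Col-0 were low, with 32 to 77 per library. The call in mock was lost without Col-0 mock replicate 2 (adjusted p = 0.0747) or replicate 3 (adjusted p = 0.064). The call after flg22 was lost in 9 of 12 such fits, namely without any 1 of the 3 a1a2 or 3 Col-0 flg22 libraries, without a1a2 mock replicate 2, or without Col-0 mock replicate 1 or 3, at adjusted p from 0.0543 to 0.238 and log2 fold changes from 2.39 to 2.96. With the block the adjusted p was 0.000181 after flg22 and 3.97e-05 in mock.

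PDC2 (chr5:22310553-22312832, 1 exon), the other main pyruvate decarboxylase gene, was not called between the genotypes. After flg22 it had 144, 104 and 33.8 CPM in a1a2, against 122, 135 and 35.0 CPM in Col-0. In mock it had 159, 104 and 27.3 CPM in a1a2, against 122, 113 and 28.0 CPM in Col-0. The genotypes overlapped fully, whereas replicate 3 was lowest in every group. Without the block the 95% interval of the log2 fold change ran from -1.7 to 1.6 after flg22 and from -1.51 to 1.79 in mock, and with the block the estimates were -0.07 ± 0.14 after flg22 and 0.09 ± 0.13 in mock (SE). Replicate 1 held 3.48 to 5.82 times the PDC2 level of replicate 3 across the 4 groups. AlaAT2 shared this order with 2.23 to 2.88 times, and of all tested genes 12.8% were lowest in replicate 3 of all 4 groups.

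PDC1 therefore made up 18.4, 13.4 and 34.9% of the summed PDC1 and PDC2 counts in a1a2 after flg22 and 19.9, 15.4 and 33.5% in a1a2 mock, against 3.15, 2.24 and 7.22% in Col-0 after flg22 and 2.08, 1.23 and 8.47% in Col-0 mock. The lowest mutant share exceeded the highest wild-type share. The log2 ratio of PDC1 to PDC2 was 3.02 higher in a1a2 (exact permutation p = 0.005, adjusted p = 0.01), and flg22 moved it by 0.16 (exact permutation adjusted p = 0.79). Their coding sequences were 75.8% identical, with a longest identical run of 20 bases.

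ADH1 (chr1:28975255-28977417, 7 exons) encodes the alcohol dehydrogenase that completes ethanol fermentation. After flg22 it had 94.1, 29.6 and 30.3 CPM in a1a2, against 7.92, 5.11 and 2.82 CPM in Col-0. In mock it had 92.3, 39.1 and 20.8 CPM in a1a2, against 6.71, 5.75 and 3.78 CPM in Col-0. No library of the mutant overlapped the wild type, but replicate 1 stood apart, and the coefficient of variation in a1a2 was 72.2% after flg22 and 73.1% in mock. Within a replicate number, ADH1 was 11.9, 5.8 and 10.8 times as high in a1a2 as in Col-0 after flg22, and 13.7, 6.8 and 5.51 times as high in mock. Without the block, ADH1 had a log2 fold change of 3.28 ± 0.65 after flg22 (edgeR adjusted p = 0.15) and 3.23 ± 0.64 in mock (adjusted p = 0.143). It was called with the block, at 3.21 ± 0.27 after flg22 (edgeR adjusted p = 0.000181) and 3.05 ± 0.26 in mock (adjusted p = 0.00019). Leaving out a1a2 or Col-0 libraries gave log2 fold changes from 2.46 to 3.71 over both treatments, and none of these fits without a block called ADH1.

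The ADH1 locus overlaps AT1G77122 on the opposite strand, and 0.78% of the 50-base stretches of the ADH1 transcript also lay in that gene. AT1G77122 had 256, 320 and 276 counts in a1a2 after flg22 and 423, 452 and 439 in a1a2 mock, against 237, 281 and 247 in Col-0 after flg22 and 482, 388 and 327 in Col-0 mock. These counts overlapped between the genotypes in mock, unlike those of ADH1. Whether counting used strand is not given in the sources used here.

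LDH (chr4:9673897-9675540, 2 exons), which serves lactate fermentation, had 33.6, 26.0 and 24.8 CPM in a1a2 after flg22, against 24.8, 21.0 and 21.8 CPM in Col-0. In mock it had 31.4, 21.3 and 18.4 CPM in a1a2, against 19.2, 17.9 and 17.1 CPM in Col-0. The groups overlapped in both treatments. Its log2 fold change was 0.32, with a 95% interval from -0.09 to 0.72, after flg22 and 0.39, from -0.01 to 0.8, in mock. Neither was called, with or without the block.

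**Figure D3:**
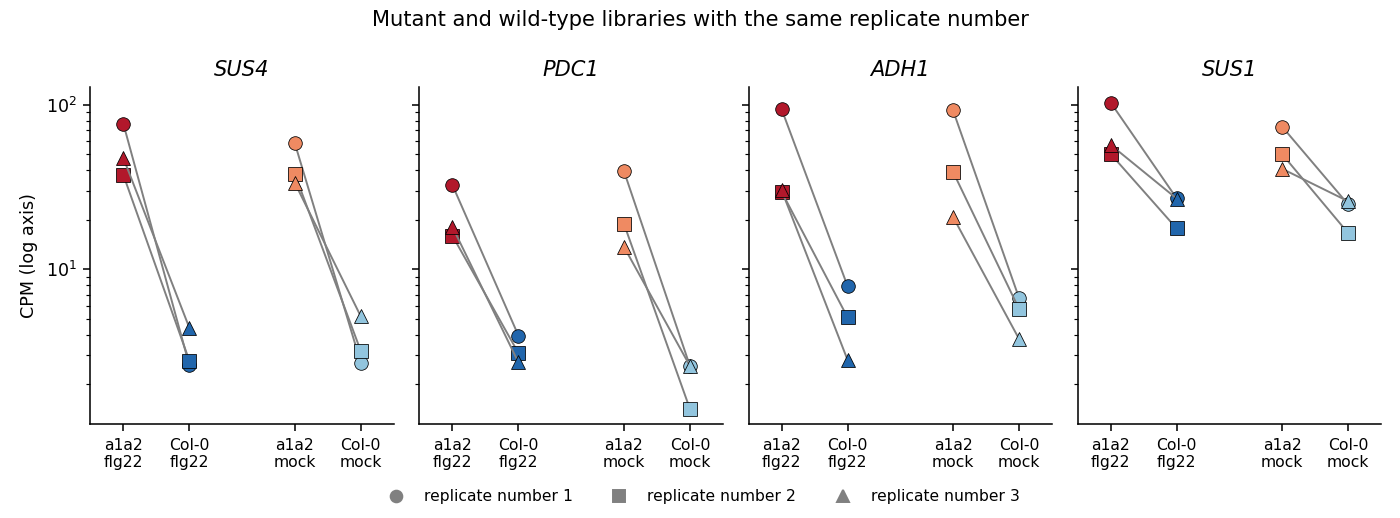
CPM of SUS4, PDC1, ADH1 and SUS1 on a shared log axis, with lines joining the a1a2 and the Col-0 library of the same treatment and replicate number. Every line falls from a1a2 to Col-0, by 5.51 to 13.7 times for ADH1 and 1.58 to 3.02 times for SUS1 in mock.

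Beside these differences, a marker of maturing seed was higher in a1a2 in mock, at a low level. CRA1, a seed storage protein gene, reached 9.85 CPM in a1a2 mock and 5.58 CPM in a1a2 with flg22, against at most 0.257 CPM in Col-0 libraries. The lowest CRA1 value in a1a2 was 1.18 CPM in mock and 0 CPM with flg22, so that the genotypes overlapped after flg22. The other marker measured, OLEO1, was at most 0.175 CPM in any library, and AT2S3 was absent from the count table. The sum of both was 0 to 5.67 CPM in a1a2 with flg22 and 1.26 to 9.85 CPM in a1a2 mock, against 0 to 0.257 CPM in Col-0 with flg22 and 0 to 0.266 CPM in Col-0 mock. Its part in the results above was not tested.

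The response to flg22 fell on AlaAT1 among the 8 genes. AlaAT1 (chr1:5922332-5926400, 14 exons) encodes an alanine aminotransferase and had 847, 859 and 531 CPM in a1a2 after flg22, against 213, 205 and 154 CPM in a1a2 mock. In Col-0 it had 755, 825 and 566 CPM after flg22, against 205, 210 and 156 CPM in mock. Every flg22 library exceeded every mock library of either genotype, and replicate 3 was lowest in all 4 groups. This gave a log2 fold change of 1.97 ± 0.23 (SE) in a1a2, with an edgeR adjusted p of 4.87e-05, and 1.91 ± 0.23 in Col-0, with an adjusted p of 6.48e-05, which is 3.91-fold in a1a2 and 3.76-fold in Col-0. Within a replicate number the rise was 3.97, 4.19 and 3.45 times in a1a2 and 3.69, 3.93 and 3.63 times in Col-0. AlaAT1 was the member called in each genotype, 1 of 8, where flg22 called 21.2% of all tested genes in a1a2 and 21.0% in Col-0. For so few genes, 1 call does not set the members apart from all genes. With the block the number called was also 1 of 8, against 24.8% in a1a2 and 24.6% in Col-0.

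AlaAT1 was not called between the genotypes. Its log2 fold change between a1a2 and Col-0 was 0.06 after flg22, with a 95% interval from -0.42 to 0.54, and 0.00 in mock, with an interval from -0.48 to 0.49. With the block it was 0.05 ± 0.08 after flg22 and 0.00 ± 0.08 in mock (SE).

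AlaAT2 (chr1:27233418-27236822, 14 exons), its paralogue, was not called on flg22. It had 21.3, 13.6 and 7.89 CPM in a1a2 after flg22, against 23.7, 12.8 and 8.26 CPM in a1a2 mock. In Col-0 it had 23.7, 17 and 10.6 CPM after flg22, against 24.7, 13.7 and 8.58 CPM in mock. Treatments and genotypes overlapped throughout. Without the block its log2 fold change on flg22 was -0.07 in a1a2, with a 95% interval from -1.16 to 1.02, and 0.13 in Col-0, from -0.96 to 1.22. With the block it was -0.05 ± 0.1 in a1a2 and 0.18 ± 0.1 in Col-0, and neither was called. The end of AlaAT2 overlaps AT1G72340 on the same strand, but no 50-base stretch of the AlaAT2 transcript occurred in another gene.

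Within a library, AlaAT1 outnumbered AlaAT2 by 39.7, 63.4 and 67.3 times in a1a2 after flg22, against 8.99, 16 and 18.6 times in a1a2 mock. In Col-0 it did so by 31.9, 48.5 and 53.2 times after flg22, against 8.26, 15.4 and 18.2 times in mock. All flg22 libraries had a higher ratio than all mock libraries. The log2 ratio rose by 1.86 with flg22 (exact permutation p = 0.005, adjusted p = 0.01). It was 0.21 higher in a1a2, which did not pass without the replicate block (exact permutation adjusted p = 0.54) and did with it (exact permutation adjusted p = 0.0469, where 0.0312 is the smallest unadjusted p that 64 assignments can give). That adjusted p depends on other ratio tests having reached the same smallest p. With the block, AlaAT2 in a1a2 against Col-0 was at -0.3 ± 0.1 after flg22 and -0.07 ± 0.1 in mock (log2, SE), and was not called. The coding sequences were 82.9% identical, with a longest identical run of 41 bases.

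The other 7 genes were not called on flg22 in either genotype. In a1a2 the log2 fold change was 0.32 ± 0.31 for SUS4, -0.12 ± 0.38 for PDC1 and 0.02 ± 0.57 for ADH1, and in Col-0 it was -0.17 ± 0.37 for SUS4, 0.56 ± 0.45 for PDC1 and -0.04 ± 0.64 for ADH1. SUS1 had 0.35 ± 0.3 in a1a2 and 0.09 ± 0.31 in Col-0, and PDC2 had -0.04 ± 0.75 in a1a2 and 0.15 ± 0.75 in Col-0. LDH had 0.25 ± 0.18 in a1a2 and 0.32 ± 0.19 in Col-0, where its flg22 libraries lay above its mock libraries. Without the block the 95% intervals of all 7 genes reached past a 1.5-fold rise in both genotypes, and those of ADH1, PDC2 and AlaAT2 also reached past a 1.5-fold fall in both. Changes of that size were thus not excluded by that fit. With the block the SE in each genotype was smaller, at 0.14 for PDC2, 0.1 for AlaAT2 and 0.11 for LDH. LDH in Col-0 was then at 0.32 (edgeR adjusted p = 0.0407), under 1.5-fold and so not called. The CPM of flg22 and mock did not overlap for 1 of 8 genes in a1a2 (AlaAT1), against 41.9% of all tested genes, and for 3 of 8 in Col-0 (AlaAT1, PDC1 and LDH), against 39.4%. The median log2 fold change over the 8 genes was 0.13 in a1a2 and 0.14 in Col-0, beside 0.00 in a1a2 and -0.01 in Col-0 over all genes.

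The difference between the flg22 responses of a1a2 and Col-0 was called for 0 of 8 genes and for 0% of all tested genes by edgeR, of which 188 had an unadjusted p under 0.05. None of the 8 reached an unadjusted p under 0.05 with or without the block, and DESeq2 called 0. The largest estimate was that of PDC1, at -0.68 with a 95% interval from -1.98 to 0.63, and that of AlaAT1 was 0.06, from -0.63 to 0.74.

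**Figure D4:**
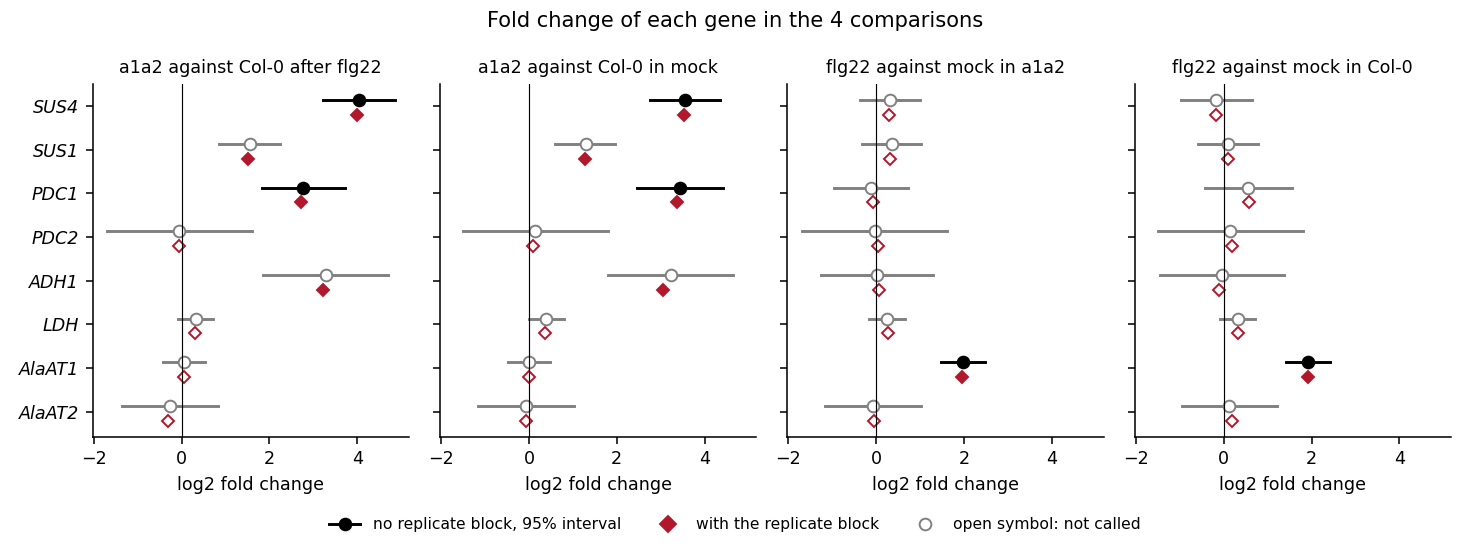
Log2 fold change of each gene in the 4 comparisons, with circles and 95% intervals from the fit without a block, diamonds from the fit with the replicate block, and filled symbols for called genes. SUS4 and PDC1 are called without the block in both genotype comparisons, ADH1 and SUS1 with it, and AlaAT1 alone is called on flg22.

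Scaled to transcript length, the order of the 8 genes differed between the genotypes. In a1a2 mock the mean CPM per kb of transcript was 80.2 ± 13.5 for AlaAT1 (SD, n = 3), 42.4 ± 29.0 for PDC2, 31.8 ± 23.3 for ADH1, 16.3 ± 4.71 for LDH, 15.7 ± 4.83 for SUS1, 15 ± 4.58 for SUS4, 10.9 ± 6.17 for PDC1 and 7.32 ± 3.89 for AlaAT2. Each neighbouring pair in that order overlapped over the 3 libraries. In Col-0 mock the mean was 80.0 ± 12.5 for AlaAT1, 38.5 ± 22.8 for PDC2, 12.4 ± 0.729 for LDH, 7.67 ± 4.05 for AlaAT2, 6.43 ± 1.46 for SUS1, 3.4 ± 0.938 for ADH1, 1.28 ± 0.454 for SUS4 and 0.993 ± 0.306 for PDC1. There AlaAT1 was separated from PDC2, SUS1 from ADH1 and ADH1 from SUS4, and the other neighbours overlapped. ADH1 was thus the third in a1a2 and the sixth in Col-0. With flg22 AlaAT1 reached 314 ± 78.1 CPM per kb in a1a2 and 301 ± 56.4 in Col-0.

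Of the relatives of SUS1, PDC1 and ADH1, the genes examined were 4 sucrose synthase genes, PDC3, PDC4 and ADH2. None of them was called between the genotypes, where 0.137% of all tested genes were called after flg22 and 0.166% in mock. None of the other 4 sucrose synthase genes (SUS2, SUS3, SUS5 and SUS6) was called in any comparison, and their log2 fold changes between a1a2 and Col-0 ran from -0.4 to -0.07 after flg22 and from -0.19 to 0.34 in mock. PDC3 and PDC4, minor pyruvate decarboxylase genes, and ADH2, which encodes a glutathione-dependent formaldehyde dehydrogenase, were likewise not called. In mock PDC3 averaged 2.53 CPM in a1a2 and 3.08 in Col-0, and PDC4 1.11 and 0.913. Their 95% intervals in mock ran from -1.05 to 0.48 for PDC3 and from -0.43 to 1.01 for PDC4, and that of SUS2 from -0.43 to 1.11. In mock the interval of SUS5 ran from -0.6 to 0.31 and that of SUS6 from -0.67 to 0.28. After flg22 that of SUS6 ran from -0.88 to 0.07. A 1.5-fold genotype difference was thus not excluded for PDC3, PDC4, SUS2, SUS5 or SUS6. ADH2 had 163 ± 5.99 CPM in a1a2 after flg22 and 167 ± 3.92 in a1a2 mock, against 167 ± 11.8 in Col-0 after flg22 and 172 ± 13.8 in Col-0 mock (SD, n = 3). Its 95% interval for a1a2 against Col-0 in mock, from -0.26 to 0.16, did not reach a 1.5-fold change.

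Over 5 lists of connected enzymes, 61 of 62 genes were tested, and 0 were called for genotype in either treatment by edgeR without a block. Only 0.137% of all tested genes were called after flg22 and 0.166% in mock, so that 0 of 61 does not set the lists apart. Of the 61, 4 had an unadjusted edgeR p under 0.05 after flg22 and 5 in mock, against 950 and 940 of all 20439 tested genes. DESeq2 called 0 after flg22 and 1 in mock, ASP2, against 0.396% and 0.504% of all tested genes. With the block, 1 was called higher in a1a2 in each treatment, namely ASP2, a cytosolic aspartate aminotransferase (1.05 ± 0.16 in mock, adjusted p = 0.0092), and 1 was called lower, namely PPDK, the pyruvate orthophosphate dikinase (-0.66 ± 0.12 in mock, adjusted p = 0.0158). The fit with the block called 0.827% of all tested genes after flg22 and 0.959% in mock. The median log2 fold change of the 61 genes was 0.01 after flg22 and 0.04 in mock, near the values of all genes given above.

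On flg22 the same lists had 4 genes called higher and 2 lower in a1a2, and 5 higher and 2 lower in Col-0, out of 61 each. These 6 of 61 in a1a2 stand against 21.2% of all tested genes and the 7 of 61 in Col-0 against 21.0%, so that the share called was below that of all genes. The glutamate decarboxylase gene GAD4, whose enzyme makes GABA, had the largest rise, with 536, 508 and 279 CPM in a1a2 after flg22, against 3.12, 3.33 and 3.06 CPM in a1a2 mock. In Col-0 it had 623, 465 and 256 CPM after flg22, against 1.7, 1.9 and 2.93 CPM in mock. Every flg22 library was above every mock library, with a log2 fold change of 7.12 ± 0.42 in a1a2 (edgeR adjusted p = 1.98e-07) and 7.68 ± 0.43 in Col-0 (adjusted p = 1.84e-07). The close copy GAD3 was not analysed here, so reads from it may be part of these values.

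Around pyruvate, PPDK rose by 1.28 ± 0.28 on the log2 scale in a1a2 and 1.29 ± 0.28 in Col-0, and the pyruvate kinase gene AT2G36580 by 0.84 ± 0.17 in a1a2 and 0.87 ± 0.17 in Col-0. ACS, the acetyl-CoA synthetase that activates acetate, rose by 0.64 ± 0.15 in a1a2 and 0.72 ± 0.15 in Col-0. Its call was lost without flg22 replicate 1 of the same genotype, at 0.52 in a1a2 and 0.48 in Col-0. FBA4, a cytosolic aldolase gene, was called in Col-0 at 0.66 ± 0.11 and fell under 1.5-fold, at 0.53, without Col-0 flg22 replicate 1. At the entry of sugars, the hexokinase gene HXK2 fell by 0.87 ± 0.11 in a1a2 and by 0.76 ± 0.11 in Col-0, and the neutral invertase gene CINV2 fell by 0.83 ± 0.16 in a1a2 and by 0.78 ± 0.16 in Col-0. All of these had adjusted p under 0.05 by edgeR. The median of the lists was 0.00 in both genotypes.

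With the block, GDH2, a glutamate dehydrogenase gene, was also called higher with flg22, at 1.11 ± 0.14 in a1a2 and 1.22 ± 0.14 in Col-0, as was SSADH of the GABA shunt in a1a2 at 0.63 ± 0.09.

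**Figure D5:**
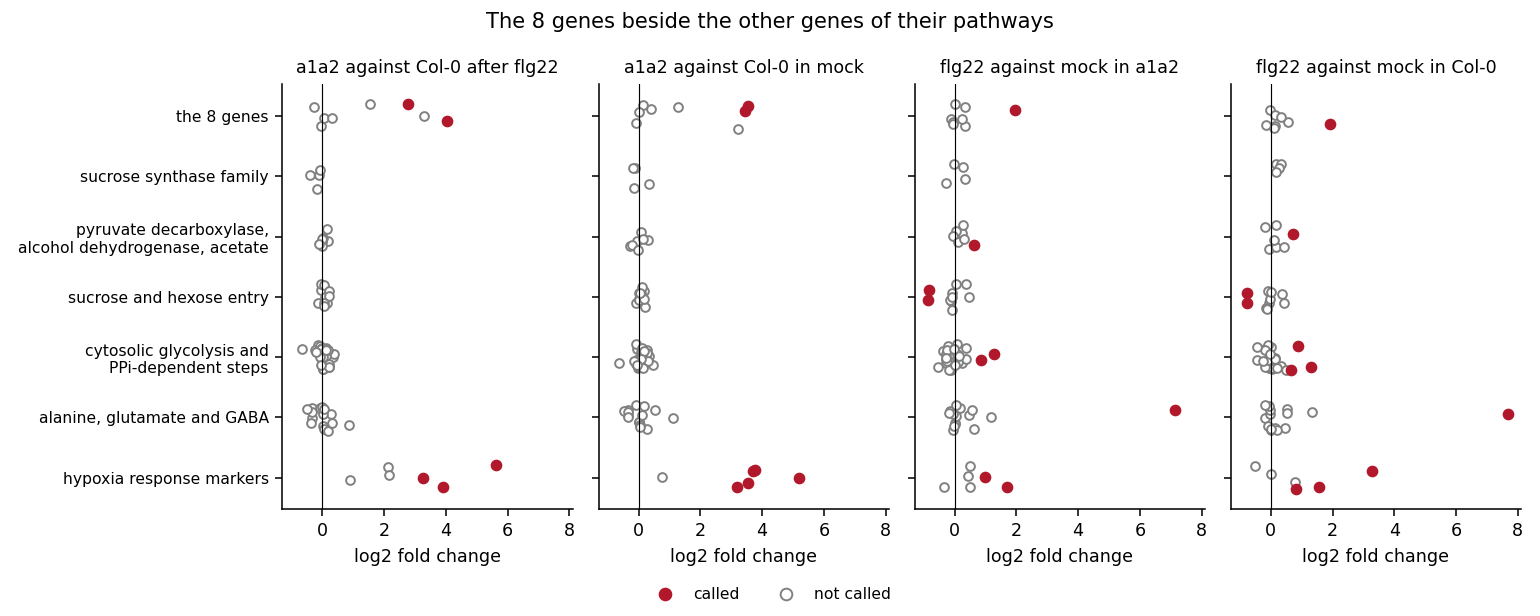
Log2 fold change of each tested gene in the 4 comparisons, with the 8 genes in the top row, 5 lists of connected enzymes and the hypoxia response markers under them, and called genes filled (fit without a block). In the genotype comparisons the called points belong to the 8 genes and the hypoxia markers. Of the 61 connected enzymes 0 are called, where all tested genes are called at 0.137% after flg22 and 0.166% in mock.

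The 4 genes with a genotype difference can be set beside regulators and sensors of low oxygen. Of 6 hypoxia response markers, 3 were called higher in a1a2 than in Col-0 after flg22 and 5 in mock, against 0.137% and 0.166% of all tested genes. With the replicate block 6 were called after flg22 and 5 in mock, against 0.827% and 0.959% of all tested genes. These markers were chosen with earlier results of these data known, so the shares are a description. The largest difference was that of PCO1, a plant cysteine oxidase gene, with a log2 fold change of 5.63 ± 0.28 after flg22 and 5.21 ± 0.27 in mock. PCO2 was at 3.91 ± 0.27 after flg22 and 3.78 ± 0.26 in mock. HB1, a phytoglobin gene, was at 3.26 ± 0.43 after flg22 and 3.54 ± 0.44 in mock. HB1 lost its call after flg22 without any 1 of the 3 Col-0 flg22 libraries (adjusted p from 0.115 to 0.136) and in mock without Col-0 mock replicate 2 or 3 (adjusted p from 0.0573 to 0.0657). On flg22, 2 of the 6 markers were called in a1a2 and 3 in Col-0, where 21.2% and 21.0% of all tested genes were called. With the block these were 2 in a1a2 and 4 in Col-0, against 24.8% and 24.6%. LBD41, a transcription factor gene, rose by 1.69 ± 0.45 in a1a2 and 3.29 ± 0.51 in Col-0, and the group VII factor gene HRE1 rose by 0.97 ± 0.26 in a1a2 and 0.83 ± 0.27 in Col-0. The group VII factor gene HRE2 was called in Col-0 at 1.57 ± 0.45 and in mock was 3.2 ± 0.41 higher in a1a2, while LBD41 was 3.72 ± 0.52 higher. HRE2 was scarce in Col-0, at 0.17 to 0.364 CPM in mock and 0.822 to 0.972 CPM after flg22. Its fold changes thus rest on few reads. After flg22 the genotype difference of LBD41 was 2.11 ± 0.46 without the block (edgeR adjusted p = 0.247) and 2.15 ± 0.19 with it (adjusted p = 0.00027). That of HRE2 was 2.14 ± 0.36 without the block (adjusted p = 0.0619) and 2.1 ± 0.26 with it (adjusted p = 0.00184), and that of HRE1 was 0.9 ± 0.26 without the block (adjusted p = 0.639) and 0.92 ± 0.17 with it (adjusted p = 0.0294). On flg22 in Col-0, HB1 was called with the block, at 0.78 ± 0.29 (adjusted p = 0.0496), and not without it (adjusted p = 0.21). Without the block, the call of LBD41 on flg22 in Col-0 held in all 12 fits that left out 1 library, and the other calls of LBD41, HRE1 and HRE2 were each lost in 2 to 8 of them. PCO1 and PCO2 were not called on flg22.

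The transcripts most like each of 4 members over the 12 libraries were found by Pearson's r on log2 CPM among the 19017 genes that averaged 1 CPM or more, as a description. All r share the same 4 groups of libraries and are not independent of the differences above. For ADH1 they were AT4G27450 (r = 0.995), annotated as an aluminum-induced protein, AT3G03270 (0.977) and AT1G33055 (0.975). For SUS1 they were HB1 (0.957), AT3G03270 (0.954) and AT3G29970 (0.953), a B12D protein gene. For SUS4 they were ICL (0.983), the isocitrate lyase of the glyoxylate cycle, AT2G17850 (0.978) and PCO1 (AT5G15120, 0.977). For AlaAT1 they were CHIP (0.998), a chaperone-linked ubiquitin ligase gene, PMT5 (0.997), a polyol and monosaccharide transporter gene, and AT1G64710 (0.996), annotated as an alcohol dehydrogenase family protein. AT3G03270 was common to ADH1 and SUS1, and no gene was common to AlaAT1 and another member.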

How the data were processed

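Poly(A) RNA from 12 pooled-seedling samples was sequenced. Per the study's methods, reads were filtered with SOAPnuke and aligned with HISAT, and the submitters' processing notes name the build TAIR10. The values deposited by the authors are estimated counts of reads per gene, made after this filtering and alignment, without any scaling for depth. The counting tool and annotation are not given in the sources used here. The 4 columns of group averages were not used. Fractional entries were 7.5% of the table and occurred in 0 of the 8 genes.

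Counts were rounded. The filterByExpr filter of edgeR 4.0.16 (R 4.3.3) left 20439 of 23739 genes, with 99.97% of counts. Library sizes were scaled by the trimmed mean of M-values (factors 0.855 to 0.959 with flg22 and 1.053 to 1.157 in mock). A robust quasi-likelihood model with 1 mean per group was fitted to all 12 libraries, and p-values were adjusted by Benjamini-Hochberg over all tested genes. A call needed an adjusted p under 0.05 and a change over 1.5-fold. SE values are the log2 fold change divided by the root of the F statistic. Log2 CPM used a prior count of 2. Log2 ratios of paralogues used a pseudocount of 0.5 and exact two-sided permutation of labels within the other factor (400 assignments), adjusted over 6 tests. The edgeR fit and the permutation test, both without the block, were tried on simulated data that held no replicate effect. The tests with the block and DESeq2 were not tried in this way.

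Deviations from the group means of libraries with the same replicate number correlated at 0.218 to 0.66. Those of libraries with different numbers correlated at -0.549 to 0.055. Deviations cancel within a group, so these negative values follow in part from the positive ones and are not separate evidence. Because libraries with the same number deviated together, the replicate number was held as a block in a second edgeR fit. It was also held in alternatives by DESeq2 and by permutation. The main edgeR fit, its intervals, the main permutation test and the fits that left out a library did not use it. In these, variation shared by a replicate number counted as error. Nothing else in the labels says what a number shares. The methods call the samples biological replicates.

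Gene positions, transcript lengths and upstream sequences are from RefSeq (TAIR10.1), matched by locus for all 8 genes. The named genes were the 8 members, the 3 genes most like each of ADH1, SUS1, SUS4 and AlaAT1, up to 3 called genes per list, direction and comparison with the largest changes, ATE1, ATE2 and 6 hypoxia markers. Relatives of the members, and genes called with the block, were named in addition, after their values were seen. The members, lists and rule were chosen with earlier results of these data known. The alternatives were other size factors, no low-count filter, the replicate block, DESeq2 1.42.0, the 6 libraries of a comparison alone, a test against 1.5-fold, the adjusted p alone, unrounded counts, a pseudocount of 2 and leaving out each library.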

Additional observations from a re-analysis of the deposited data

How the results depend on the processing

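AlaAT1 on flg22 in both genotypes and SUS4 between genotypes in both treatments were called under every alternative, with log2 fold changes from 1.66 to 2.16 and from 3.27 to 4.31. The number of the 8 genes called for a1a2 against Col-0, 2 in each treatment, was 4 in each with the replicate block, 4 in each with DESeq2 and 4 in each with DESeq2 and the replicate block. It was 1 in mock with only the 6 libraries of the comparison, and 1 after flg22 with library size alone as the scale and with the test against 1.5-fold, since PDC1 dropped out (adjusted p = 0.148, 0.0744 and 0.0768). Leaving out 1 library gave 1 to 2 calls in each treatment. Library size alone moved the median flg22 change of all genes to -0.256 in a1a2 and -0.264 in Col-0. The numbers of all tested genes called with the replicate block were 196 in mock and 169 after flg22, against 34 and 28 without it. DESeq2, fitted without the filter on low counts, called 103 and 81. The block changed no other call of the 8 genes.

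The genotype effect on the AlaAT1/AlaAT2 ratio, 0.21, passed with the replicate block (adjusted p = 0.0469). The flg22 effect on the PDC1/PDC2 ratio ran from -0.15 to 0.57 when 1 library was left out and was not significant in any such fit. Of 872 alternatives of single-gene values, 771 kept direction and call, 14 lost the call (all of PDC1), 12 gained it (ADH1 and SUS1), 75 turned sign while not called either way (at most 0.81 in size), and 0 called values turned sign. The causes were not tested.

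The counts of PDC1, SUS4 and ADH1 in Col-0 were low, at 32 to 166 a library.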
